A study of Mus musculus with 6 samples.

Results

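The proteasome members described here are the 34 genes of the constitutive proteasome and of its activators *Psme3* and *Psme4*, picked by gene name with a rule that uses no measured value, though with earlier results of these data known. Immunoproteasome subunits were left out of this set. Each of the 34 was found in 1 row of the gene count table, out of 53060 genes or merged loci that name a gene, and all 34 were among the 19073 genes that passed the filter on low counts. The counts come from RNA sequencing of neural progenitor cells (NPCs), called neural stem cells in the sample labels, from 3 *Armc5* knockout (KO) and 3 wild-type (WT) cultures, named KO NPC 1, 2 and 3 and WT NPC 1, 2 and 3 after the numbers in their labels. The KO is a germline null of *Armc5*, whose product is an adaptor of a CUL3 ubiquitin ligase, and the WT cultures carry neither deletion nor treatment. Cells of both genotypes came from the ganglionic eminences of embryonic day 13.5 fetuses, and were grown as neurospheres in 20 ng/ml epidermal growth factor to the second passage. The strain is given as 129 sv X CD1 in the labels and as a CD1 and C57BL/6 cross in the study's methods. The study calls the libraries biological replicates, but the sources do not say how many fetuses went into each culture.

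The 26S proteasome is the large protease that degrades proteins tagged with ubiquitin chains. Its 20S core is a barrel of outer alpha rings and inner beta rings, in which the beta subunits encoded by *Psmb5*, *Psmb6* and *Psmb7* cut proteins and the alpha subunits gate the entrance. The 19S cap that docks on the barrel has a base, whose ATPases unfold the substrate and whose ubiquitin receptors hold it, and a lid, whose deubiquitinase removes the ubiquitin chain. The subunits are built into the complex in fixed ratios, and in mammalian cells the transcription factor NRF1, encoded by *Nfe2l1*, raises many of their genes together when proteasome activity falls. In neural progenitors, as in other dividing cells, the complex removes cyclins and short-lived transcription factors.

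The genotype labels were checked on the targeted gene, and *Armc5* had 84, 119 and 43 counts in KO NPC 1, 2 and 3, against 1966, 2114 and 1797 counts in WT NPC 1, 2 and 3. Totals over all named loci ran from 52995791 to 85170379 counts in KO NPCs and from 66018919 to 73445736 counts in WT NPCs. Neural progenitor markers such as *Sox2* and *Nes* summed to between 3176 and 4800 CPM (counts scaled to the size of each library) in KO NPCs and between 4285 and 4612 CPM in WT NPCs, and all 10 genes of that list were detected in every library. KO NPC 3 stood apart from the other libraries in several measures. Loci that name no gene took 4.89% of its counts, against 1.31% to 1.72% in the other 5 libraries, and it was the lowest of the 6 libraries in 36.8% of all genes tested and the highest in 34.9%. In that library the 6 tested astrocyte markers summed to 2021 CPM, against 689 to 1129 CPM in the other 5, and 4 of them were at their highest, led by *Aqp4* with 1041 CPM. The oligodendrocyte lineage list summed to 4240 CPM in KO NPC 3 and to between 2626 and 3767 CPM in the other 5 libraries, with 5 of its 9 tested genes highest in KO NPC 3 and 3 lowest. The progenitor list was divided there, since its sum of 3176 CPM was the lowest of the 6, with *Nes* at 75.9 CPM against 356 to 484 CPM in the other 5 libraries, while *Sox2* was at its highest with 812 CPM. In all, 5 of the 10 progenitor markers were lowest in KO NPC 3 and 3 were highest. Of the fibroblast and meningeal markers, *Pdgfrb* had 58.5 CPM in KO NPC 3 and at most 1.59 CPM in the others, but *Col1a1* was lowest there, with 0.831 CPM. Neuron markers summed to between 803 and 1380 CPM in KO NPCs and between 821 and 1474 CPM in WT NPCs. Of these 10 genes, 5 were highest in KO NPC 3 and 0 lowest. *Map2* weighed most in the sums, with 1430 CPM in WT NPC 1. *Dcx* had 287 CPM in KO NPC 3 and 232 CPM in WT NPC 3, against 17.3 to 64.1 CPM in the other libraries. *Gad1* had 66.4 and 39.2 CPM in those 2, against 4.90 to 6.58 CPM. Microglial markers were close to 0 in all, with 1 of 6 genes past the filter. The counts and fold changes that rest most on KO NPC 3 are therefore given with and without it.

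The comparison asks whether transcript levels of the proteasome differ without *Armc5*. No proteasome member passed the test for a difference between KO and WT NPCs, yet 33 of the 34 had a negative log2 fold change, and all 33 were lowest in the same library, KO NPC 3. By edgeR's quasi-likelihood test with Benjamini-Hochberg adjustment over all genes tested, 0 of 34 members had an adjusted p under 0.05, where 0.0% of the 19073 genes did, the targeted *Armc5* included (log2 fold change -4.68, adjusted p of 0.0864 by that test), and 0 of 34 had an unadjusted p under 0.05, where 1.61% of all genes did. DESeq2, which called 0.184% of all genes, and edgeR's likelihood ratio test, which called 0.0891%, also called 0 of the 34. The log2 fold change was below 0 for 33 of 34 members, against 51.6% of all genes. Its median over the members was -0.15, against -0.013 over all genes, with a range from -0.36 for *Psmb2* to 0.16 for *Psme4*. Standard errors of the members ran from 0.18 to 0.31 and the adjusted p from 0.983 to 0.992. The 95% intervals of the single fold changes all spanned 0 and together reached from -0.99 to 0.59 on the log2 scale, and differences of that size in a single member were not detectable with 3 against 3 libraries.

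The median log2 fold change changed sign with the removal of KO NPC 3. Without that library, 25 of the 34 members were above 0 and 9 below, against 52.2% of all genes below 0. Their median was 0.047, with a range from -0.18 for *Psmb2* to 0.16 for *Psmd11* and a median standard error of 0.10. With both libraries numbered 3 left out, 31 members were above 0 and 3 below, against 51.5% of all genes below 0, and the median was 0.065. None of the members was called in either fit, and neither called any gene (0.0% of 19631 and of 18936 genes tested). The standard errors were smaller in these fits than with all 6 libraries, where the median standard error was 0.23.

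**Figure D1:**
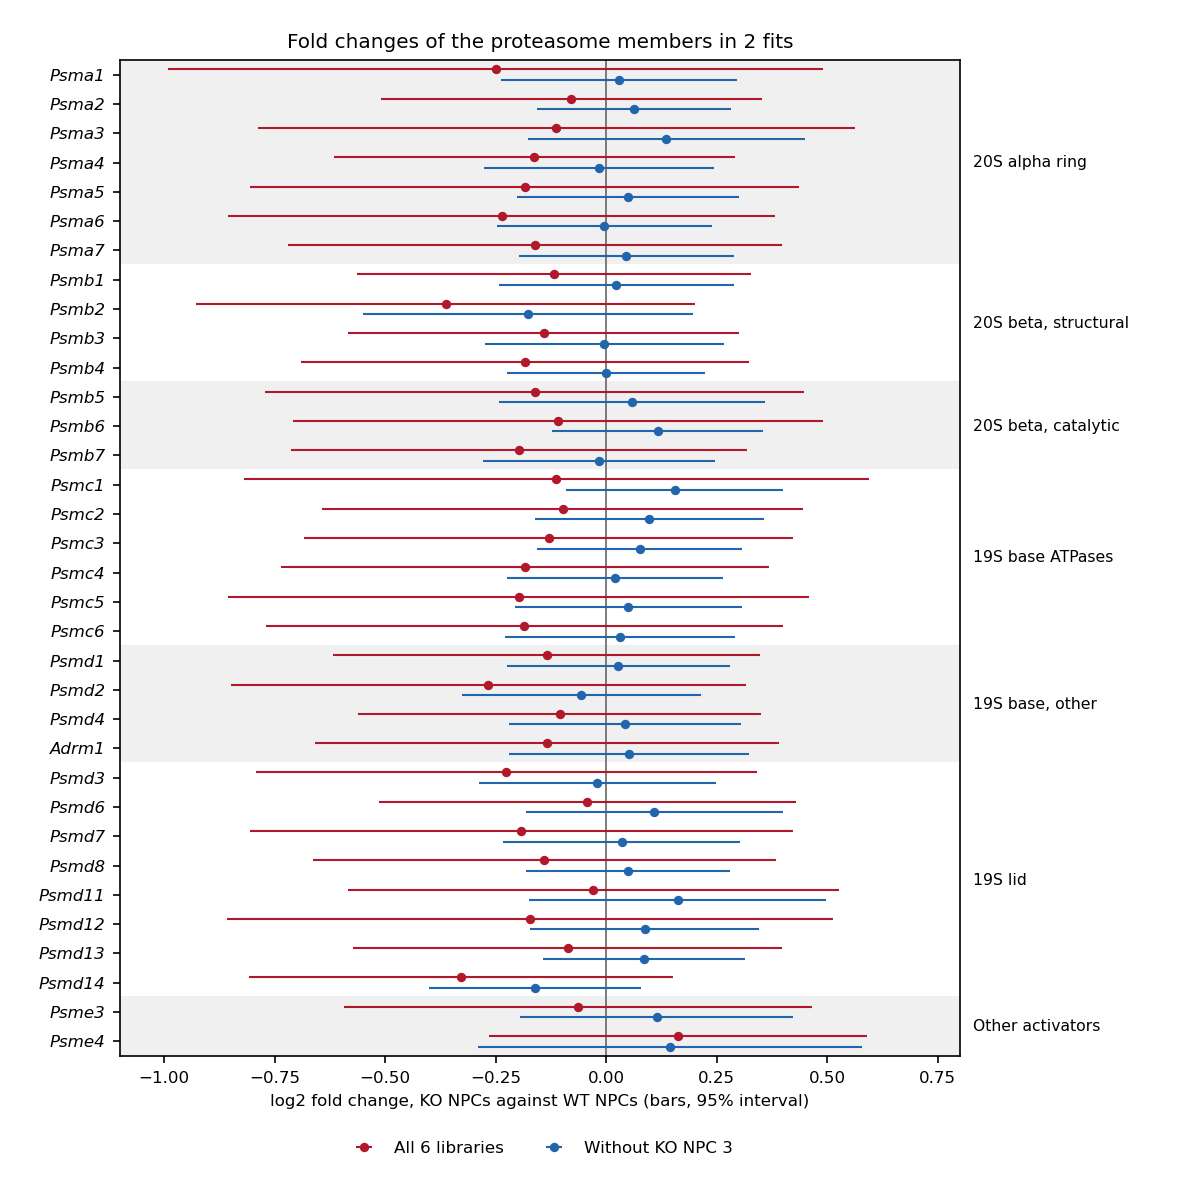
Log2 fold change of each of the 34 proteasome members, KO NPCs against WT NPCs, with its 95% interval (x axis), fitted on all 6 libraries in red and without KO NPC 3 in blue, with genes grouped by role down the page. In the fit on all libraries 33 of 34 points lie below 0 (median -0.15), and without KO NPC 3 only 9 do (median 0.047), while all intervals span 0.

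The same split shows when libraries with the same number are set against each other. KO NPC 1 was higher than WT NPC 1 in 29 members and lower in 5, with a median log2 difference of 0.048, and KO NPC 2 was higher than WT NPC 2 in 30 members and lower in 4, with a median of 0.095. KO NPC 3 was higher than WT NPC 3 in 1 member and lower in 33, with a median of -0.74. In that pair the WT library was itself high. WT NPC 3 was the highest of the 6 libraries in 17 of 34 members, against 13.7% of all genes, and KO NPC 1 in 12, against 13.3%. Over all genes the KO library of a pair was lower in 49.5%, 49.3% and 51.3% of genes for numbers 1, 2 and 3. Across all 6 libraries, the 34 members together held 3778, 3719 and 2391 CPM in KO NPC 1, 2 and 3, against 3649, 3484 and 3782 CPM in WT NPC 1, 2 and 3. That is 0.368%, 0.364% and 0.266% of the counts at named loci in the KO libraries, against 0.349%, 0.340% and 0.381% in the WT libraries. The sums of KO NPC 1 and KO NPC 2 lay within the range of the WT libraries in CPM, and KO NPC 3 lay below that range.

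The members differed in KO NPC 3 from the other 5 libraries by amounts that varied less than those of all genes. These differences ran from -1.07 for *Psma1* to 0.15 for *Psme4*. The log2 CPM of KO NPC 3 lay 0.68 below the mean of the other 5 libraries for the median member (median difference -0.68), with quartiles at -0.78 and -0.54. Over all genes the same difference had a median of 0.0066 and quartiles at -0.60 and 0.77. The SD of this difference over the 34 members was 0.21, against 1.37 over all genes, and in the other 5 libraries it was between 0.068 and 0.15 over the members. KO NPC 3 was under 0.8 times the lowest of the other libraries in 31 of 34 members, against 24.8% of all genes. *Psmd6*, *Psmd11* and *Psme4* were the 3 outside that count, and *Psme4* alone was not lowest in KO NPC 3. Leaving that library aside, the members varied little, with a median coefficient of variation over the 5 other libraries of 5.87%, against 18.9% over all genes. Over the 3 WT libraries the median was 6.57% for the members and 17.3% for all genes. The members had at least 1033 counts in every library, whereas all genes include those just past the filter. No set of genes matched for level was compared, for these values or for the SD. In bulk RNA, fewer cells with a given level and less RNA per cell cannot be told apart, and the part of the shifted marker levels of KO NPC 3 in these differences was not tested.

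**Figure D2:**
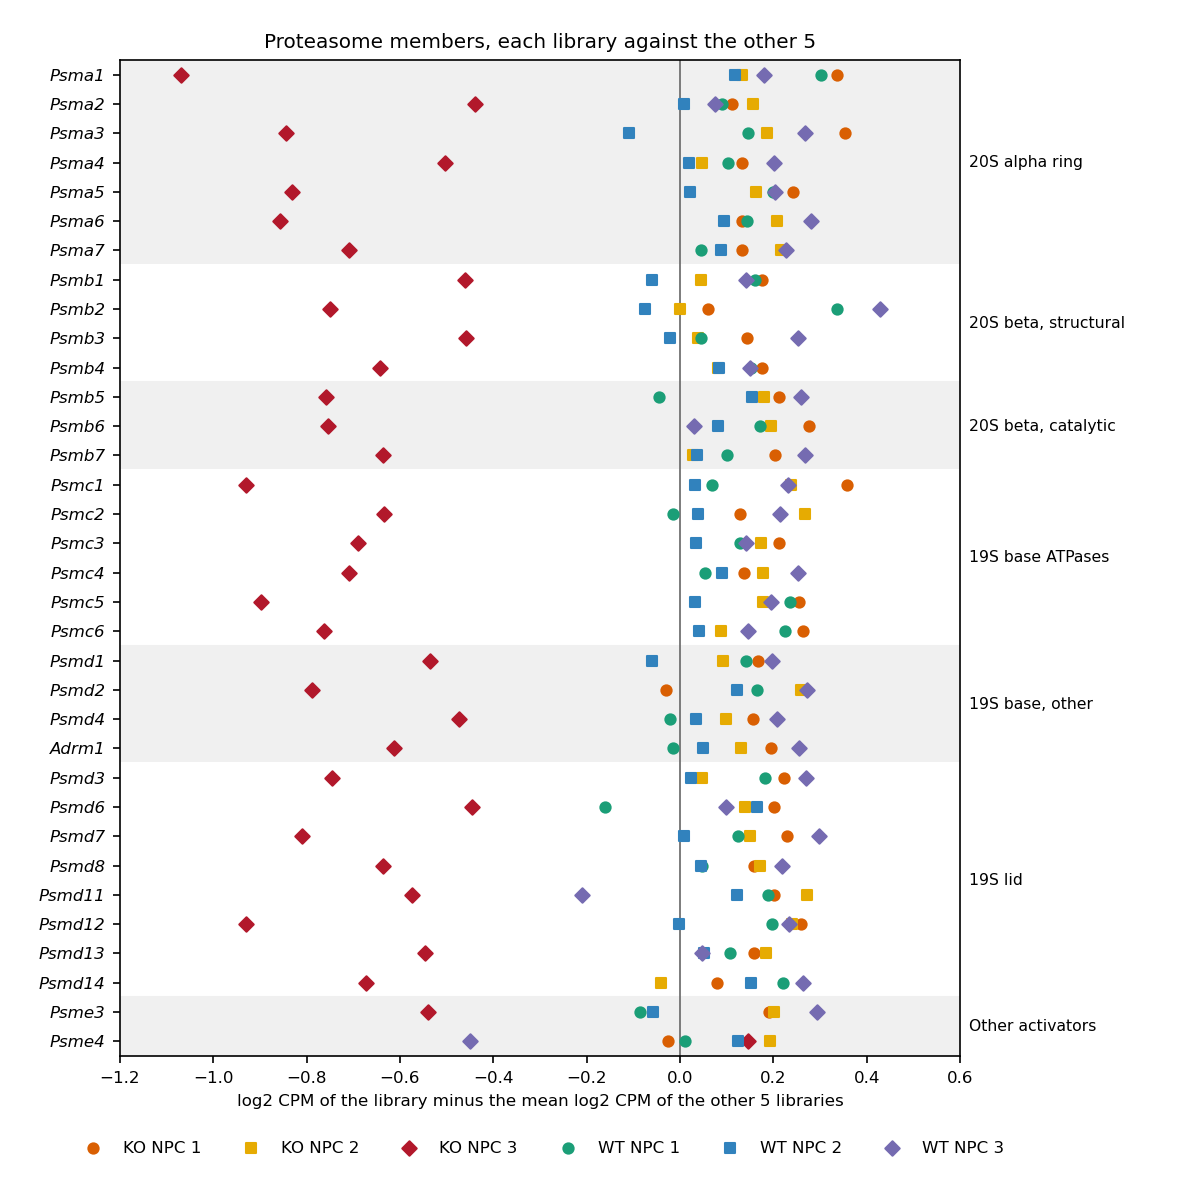
Log2 CPM of each library minus the mean of the other 5 libraries (x axis) for each of the 34 proteasome members (y axis, grouped by role), with 1 point for each library. KO NPC 3 lies left of every other library in 33 members and spans -1.07 to 0.15, and the other 5 libraries lie close together.

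**Figure D3:**
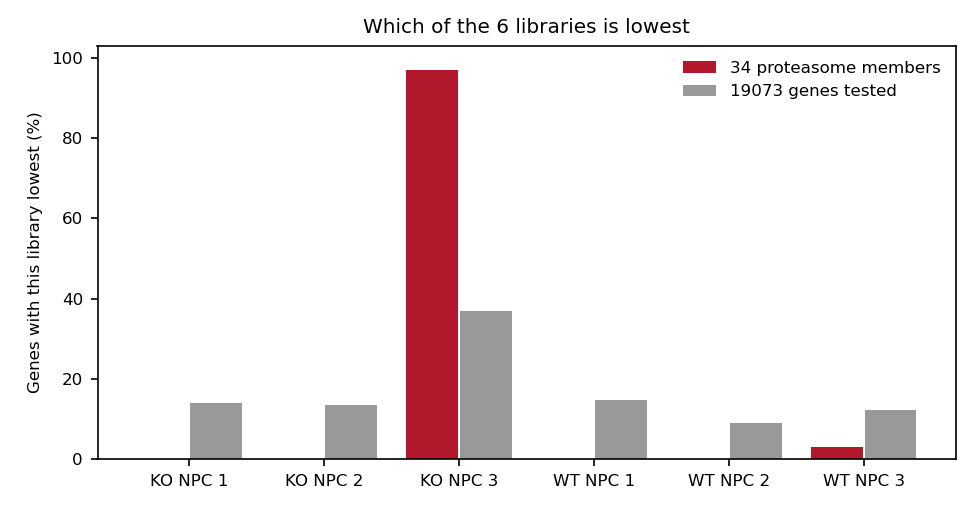
Share of genes (y axis, %) for which each of the 6 libraries (x axis) has the lowest CPM, for the 34 proteasome members in red and for the 19073 genes tested in grey. KO NPC 3 is lowest in 33 of 34 members and in 36.8% of all genes.

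The promoters of the members were searched for sequences that proteasome genes are known to share. RefSeq start sites on GRCm38.p6 gave windows of 300 bases (250 before and 50 after the start) for 28 of the 34 members, and *Psmb1*, *Psmb2*, *Psmb7*, *Psmc3*, *Psmd3* and *Psmd7* had none. Both strands were searched for TGACNNNGC, the core of the antioxidant response element that NRF1 and NRF2 bind, for CCGGAAG, a core bound by ETS factors, and for CCAAT, the box bound by NF-Y. The ETS core was in the windows of 13 of 28 members (46.4%), against 2674 of 26742 genes (10%), the antioxidant core in 6 of 28 (21.4%), against 3748 genes (14%), and the CCAAT box in 12 of 28 (42.9%), against 41.0%. No match of 1 motif overlapped that of another in the members' windows. The members' windows were richer in GC, with a median of 59.0% against 53.0% for all windows. The 26742 genes are all those with a window, whether or not they were tested here, and were not matched to the members for GC or level. The ETS matches of *Psma6* lay only in the window of a start site further into the gene. The 6 members with the antioxidant core were *Psmb5*, *Psmb6*, *Psmc6*, *Adrm1*, *Psmd12* and *Psme4*. *Psme4*, the member that was not low in KO NPC 3, held matches to both the antioxidant and the ETS core, as did *Psmc6*, *Adrm1* and *Psmd12*, which were low in that library. The 250 bases before the start are shown, 5′ to 3′ on the gene's strand, for the catalytic subunit *Psmb5* with its antioxidant core (chr14:54617996-54618245, minus strand), for the base scaffold *Psmd2* with an ETS core (chr16:20651402-20651651, plus strand), for *Psmd12* with both (chr11:107479278-107479527, plus strand), and for *Psme4* as the exception among the libraries (chr11:30771525-30771774, plus strand). Capitals mark the matches to TGACNNNGC and CCGGAAG on either strand.
Psmb5: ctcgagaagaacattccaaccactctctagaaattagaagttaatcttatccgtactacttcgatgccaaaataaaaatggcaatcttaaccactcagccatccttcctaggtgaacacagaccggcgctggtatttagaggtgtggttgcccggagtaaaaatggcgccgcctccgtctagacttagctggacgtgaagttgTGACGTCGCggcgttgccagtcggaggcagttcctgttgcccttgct
Psmd2: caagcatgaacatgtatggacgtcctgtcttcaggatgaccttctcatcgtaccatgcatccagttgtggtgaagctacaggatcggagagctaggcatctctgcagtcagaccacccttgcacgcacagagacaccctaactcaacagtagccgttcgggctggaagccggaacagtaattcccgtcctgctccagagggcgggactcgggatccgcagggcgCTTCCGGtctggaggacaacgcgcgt
Psmd12: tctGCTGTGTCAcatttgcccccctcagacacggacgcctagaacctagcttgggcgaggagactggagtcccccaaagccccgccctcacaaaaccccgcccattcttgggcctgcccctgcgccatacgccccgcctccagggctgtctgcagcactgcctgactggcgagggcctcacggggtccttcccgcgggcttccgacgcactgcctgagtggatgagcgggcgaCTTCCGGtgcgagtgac
Psme4: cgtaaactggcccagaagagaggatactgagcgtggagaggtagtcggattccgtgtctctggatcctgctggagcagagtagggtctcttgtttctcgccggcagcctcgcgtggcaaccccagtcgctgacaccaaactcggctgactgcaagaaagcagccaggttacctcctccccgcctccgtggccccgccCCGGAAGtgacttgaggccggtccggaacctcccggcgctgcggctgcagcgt
In these stretches the match begins 47 bases before the start in *Psmb5*, 26 in *Psmd2* and 53 in *Psme4*. In *Psmd12* the antioxidant core begins 247 bases before the start and the ETS core 17. The antioxidant match of *Psme4* spans its start site and so is not among the capitals. A match is a description of letters, and binding was not measured in these libraries. Whether the matches bear on the levels in KO NPC 3 was not tested.

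The catalytic subunits of the 20S core came out alike. *Psmb5*, the chymotrypsin-like subunit (chr14:54614119-54618022, minus strand, GRCm38), had 30.7, 30.2 and 17.5 CPM in KO NPC 1, 2 and 3, against 26.5, 29.7 and 31.6 CPM in WT NPC 1, 2 and 3. The groups overlapped, since KO NPC 1 and 2 sat within the WT range and only KO NPC 3 lay outside it. Its mean was 26.1 ± 7.46 CPM in KO NPCs and 29.2 ± 2.57 CPM in WT NPCs (SD, n = 3 each), with a log2 fold change of -0.16 ± 0.25 (SE). *Psmb6*, the caspase-like subunit (chr11:70525367-70527858, plus strand), had 101, 95.9 and 55.4 CPM in the KO libraries, against 94.6, 89.75 and 87.2 CPM in the WT libraries. Here both KO NPC 1 and KO NPC 2 were above all WT libraries and KO NPC 3 was below them, and the log2 fold change was -0.11 ± 0.25, or 0.12 without KO NPC 3. *Psmb7*, the trypsin-like subunit (annotated at chr2:38588036-38644087, minus strand), had 178, 161 and 110 CPM in KO NPCs, against 168, 161 and 185 CPM in WT NPCs. Its log2 fold change was -0.20 ± 0.21, and -0.016 without KO NPC 3. GENCODE lists processed pseudogenes of these 3 genes, the row of *Psmb5* also names the microRNA gene *Mir686* within it, and the sources do not say how reads that fit several loci were counted.

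The structural subunits of the core were also lowest in KO NPC 3, while the order of the other libraries varied between genes. *Psma1*, an alpha subunit (chr7:114264606-114276118, minus strand), had the largest shortfall of all members in KO NPC 3, with 131, 116 and 58.1 CPM in KO NPC 1, 2 and 3, against 128, 115 and 120 CPM in WT NPC 1, 2 and 3. KO NPC 1 and 2 were each close to the WT library of their own number, and the fitted value was -0.25 ± 0.31 on the log2 scale, or 0.029 without KO NPC 3. *Psma4*, another alpha subunit (chr9:54950790-54958030, plus strand), had 40.01, 38.1 and 27.7 CPM in KO NPCs, against 39.3, 37.5 and 41.7 CPM in WT NPCs, with a log2 fold change of -0.16 ± 0.19, or -0.016 without KO NPC 3. Its groups overlapped through KO NPC 1 and 2. Over the 7 alpha genes, KO NPC 3 lay between -1.07 and -0.44 from the other libraries on the log2 scale, with a median of -0.83 and the smallest difference in *Psma2*, whose row also names *AW209491*.

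*Psmb2*, a beta subunit without proteolytic activity (chr4:126677630-126709714, plus strand), had the lowest fold change of the 34. It had 114, 110 and 71.1 CPM in KO NPC 1, 2 and 3, against 133, 105 and 141 CPM in WT NPC 1, 2 and 3. WT NPC 2 was below both KO NPC 1 and KO NPC 2, so that the groups overlapped. The means were 98.1 ± 23.5 CPM in KO NPCs and 126 ± 18.8 CPM in WT NPCs (SD, n = 3 each), and the log2 fold change was -0.36 ± 0.23, with an unadjusted p of 0.168 and an adjusted p of 0.983 by the quasi-likelihood test. Without KO NPC 3 it was -0.18. The other 3 structural beta genes, *Psmb1*, *Psmb3* and *Psmb4*, had log2 fold changes between -0.18 and -0.12, and between -0.0048 and 0.023 without KO NPC 3. The 4 structural beta genes lay a median of 0.55 below the other libraries in KO NPC 3 (difference -0.55).

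Among the 19S genes, the 6 base ATPases *Psmc1* to *Psmc6* had log2 fold changes between -0.20 and -0.10, and all 6 were lowest in KO NPC 3, with a median difference of -0.74 there. Without that library their log2 fold changes were between 0.020 and 0.16. *Psmc5* (annotated at chr11:106256154-106263120, plus strand), which had the largest change of the 6, had 76.1, 72.8 and 39.1 CPM in KO NPC 1, 2 and 3, against 75.3, 66.9 and 73.5 CPM in WT NPC 1, 2 and 3. KO NPC 1 was the highest library and KO NPC 3 the lowest, and the log2 fold change was -0.20 ± 0.27, or 0.050 without KO NPC 3. *Psmd1*, a scaffold of the base (annotated at chr1:86064387-86139151, plus strand), had 290, 278 and 193 CPM in KO NPCs, against 286, 255 and 295 CPM in WT NPCs, but its row also names *Armc9* and *Gm21972*, so that its counts cannot be assigned to *Psmd1* alone. *Psmd2*, the other scaffold and a docking site for ubiquitin shuttles (chr16:20651652-20663414, plus strand), had 208, 246 and 135 CPM in KO NPCs, against 234, 228 and 248 CPM in WT NPCs. KO NPC 1 was also below the WT range here, and the log2 fold change was -0.27 ± 0.24, or -0.057 without KO NPC 3. The ubiquitin receptors *Psmd4* and *Adrm1* had log2 fold changes of -0.11 and -0.13, or 0.042 and 0.051 without KO NPC 3.

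The lid held the only member whose groups did not overlap. *Psmd14*, the deubiquitinase that removes ubiquitin chains at the entrance (chr2:61711694-61800376, plus strand), had 69.6, 65.0 and 45.1 CPM in KO NPC 1, 2 and 3, against 75.6, 72.6 and 77.5 CPM in WT NPC 1, 2 and 3. Every KO library was below every WT library for this 1 of 34 members, a pattern seen in 3.28% of all genes. Its means were 59.9 ± 13.03 CPM in KO NPCs and 75.2 ± 2.45 CPM in WT NPCs (SD, n = 3 each). The log2 fold change of -0.33 ± 0.20 had the lowest unadjusted p of the members, 0.146, and an adjusted p of 0.983. Without KO NPC 3 it was -0.16 ± 0.095, with an interval from -0.40 to 0.077, and *Psmd14* and *Psmb2* then had the 2 lowest fold changes. No member had every KO library above every WT library, a pattern seen in 2.74% of all genes. With both libraries numbered 3 set aside, KO NPC 1 and 2 were above WT NPC 1 and 2 in 17 of 34 members, against 15.5% of all genes, and below them in *Psmd14* alone, against 14.5%.

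*Psmd3*, a scaffold subunit of the lid (chr11:98682554-98695979, plus strand), had 154, 140 and 88.2 CPM in KO NPC 1, 2 and 3, against 151, 138 and 159 CPM in WT NPC 1, 2 and 3. KO NPC 1 and 2 were again inside the WT range, and the log2 fold change was -0.23 ± 0.23, or -0.020 without KO NPC 3. The 6 other lid genes, *Psmd6*, *Psmd7*, *Psmd8*, *Psmd11*, *Psmd12* and *Psmd13*, had log2 fold changes between -0.19 and -0.029, and between 0.035 and 0.16 without KO NPC 3. Of these, *Psmd11* had the smallest change over all 6 libraries and the largest positive one, 0.16, without KO NPC 3, and only KO NPC 3 was below WT NPC 3 in it.

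The alternative activators differed from each other. *Psme3*, which encodes the nuclear activator PA28 gamma and whose row also names *Aoc2*, had 229, 230 and 150 CPM in KO NPC 1, 2 and 3, against 195, 199 and 243 CPM in WT NPC 1, 2 and 3, and so shared the low value in KO NPC 3. *Psme4*, which encodes the activator PA200 (chr11:30771726-30880361, plus strand), had 200, 227 and 221 CPM in KO NPCs, against 204, 218 and 156 CPM in WT NPCs. Its lowest library was WT NPC 3 and its highest KO NPC 2, and its groups overlapped. The means were 216 ± 14.2 CPM in KO NPCs and 193 ± 32.3 CPM in WT NPCs (SD, n = 3 each), with a log2 fold change of 0.16 ± 0.18, the only one above 0 among the members with all 6 libraries.

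**Figure D4:**
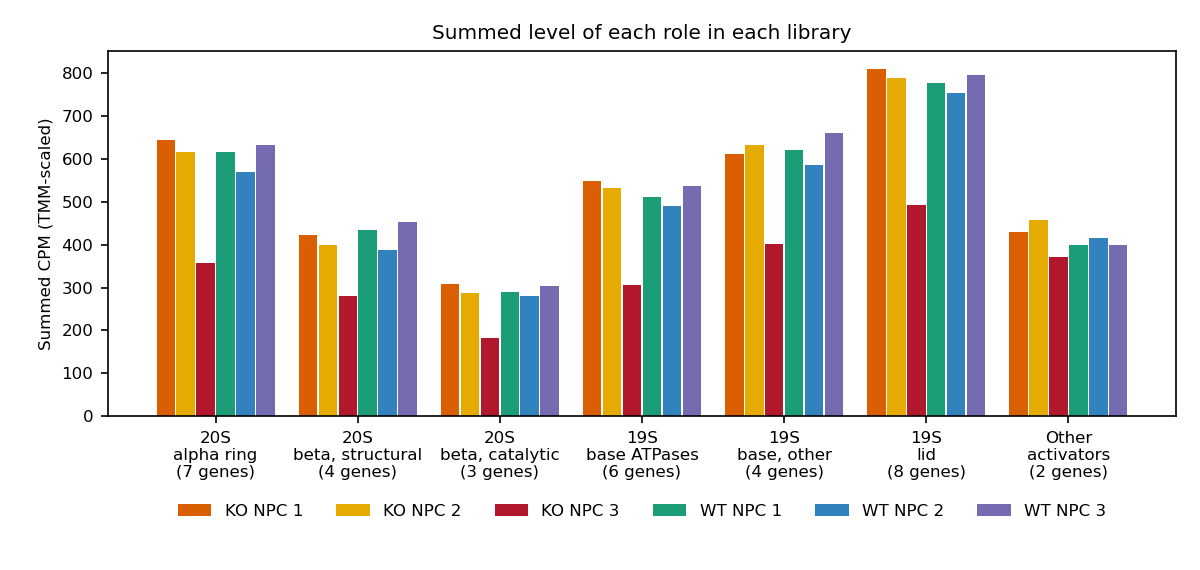
Summed CPM (y axis, TMM-scaled) of the proteasome members of each role (x axis) in each library, with the 3 KO libraries to the left of the 3 WT libraries. In the 6 roles other than the alternative activators the bar of KO NPC 3 is clearly the shortest, as for the 20S alpha ring with 358 CPM, against 569 to 644 CPM in the other 5 libraries.

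The difference in KO NPC 3 was larger in size for members with a shorter length of assembled exons. Across the 34 members, the difference between KO NPC 3 and the other libraries had a Pearson correlation of 0.60 and a Spearman correlation of 0.57 with the log2 length of the assembled exons, and of 0.117 and -0.028 with the log2 WT level, where all points share the same libraries. Without *Psme4*, the longest mRNA of the set, the Pearson correlation with assembled length was 0.46 and the Spearman correlation 0.54. With the length of the annotated mRNA the Pearson correlation was 0.44 and the Spearman correlation only 0.19. Without *Psme4* those 2 were 0.13 and 0.12. The relation to exon length was not computed over all genes. By width of the locus, the median difference of all genes in KO NPC 3 was 0.16 in the shortest quartile. In the next quartiles it was -0.038, -0.081 and 0.060. The 22 members whose row names no other gene and whose locus keeps within 1 kb of the annotated gene had a median difference of -0.71, the 8 whose locus runs past the gene by more than 1 kb had -0.64, and the 4 whose row names another gene had -0.54.

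Scaled to the length of the annotated mRNA, the 4 highest members were the beta subunit genes *Psmb7*, *Psmb2*, *Psmb3* and *Psmb6*, but other beta genes were lower. Over the 30 members alone in their rows, CPM per kb of annotated mRNA in WT NPCs had a median of 57.2 and ran from 28.8 for *Psmd13* to 148 for *Psmb7*. *Psmb7* had 129 ± 30.7 CPM per kb in KO NPCs and 148 ± 10.4 CPM per kb in WT NPCs, and *Psmb2* had 114 ± 27.3 and 147 ± 21.8 CPM per kb in KO and WT NPCs (SD, n = 3 each). Those 2 did not differ beyond their spread. *Psmb3* with 129 ± 10.8, *Psmb6* with 113 ± 4.71 and *Psma1* with 101 ± 5.46 CPM per kb followed in WT NPCs. *Psmb4* had 84.5 ± 1.89 and *Psmb1* 57.0 ± 3.95 CPM per kb in WT NPCs, the last close to the median, and *Psmb5*, left out of this order because its row also names *Mir686*, had 32.5 ± 2.85. The medians of the roles in WT NPCs were 131 for the 2 catalytic genes measured alone, 107 for the structural beta genes, 64.0 for the alpha ring, 53.1 for the lid, 49.3 for the ATPases and 37.8 CPM per kb for the base genes without ATPase activity. *Psmd13*, *Psme4* and *Psma4* were the lowest 3, at 28.8 ± 0.55, 29.7 ± 4.97 and 33.9 ± 1.80 CPM per kb. The order depends on the length used. With the length of the assembled exons, *Psmb2* came first with 96.5 CPM per kb in WT NPCs, followed by *Psmd2*, *Psma5* and *Psmb4*. *Psmb6* then had rank 5, *Psmb7* rank 7 and *Psmb3* rank 10 of the 30, and *Psme4* was last with 10.8 CPM per kb.

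**Figure D5:**
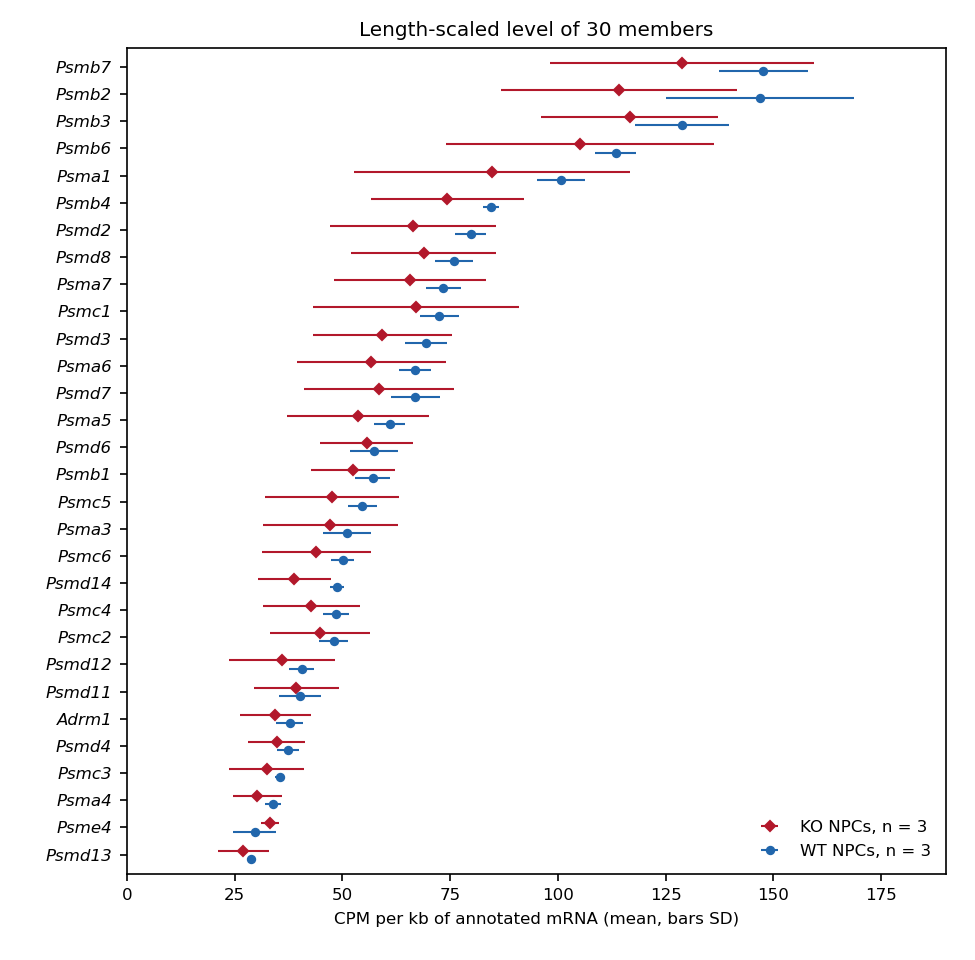
Mean CPM per kb of annotated mRNA (x axis, bars SD, n = 3) for the 30 proteasome members alone in their rows, in KO NPCs (red) and WT NPCs (blue), ordered by the WT level. Psmb7, Psmb2, Psmb3 and Psmb6 lead in WT NPCs, and the SD is wider in KO NPCs for most members.

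Genes that work with the proteasome were set beside the members as 6 lists, of which 49 genes were tested and are reported. None of the 49 was called, where 0.0% of all genes were, and 2 had an unadjusted p under 0.05, where 1.61% of all genes did. In log2 fold change 17 lay above 0 and 32 below, against 51.6% of all genes below 0, and the median was -0.090. Without KO NPC 3 the balance turned, with 33 above 0 and 16 below, against 52.2% of all genes below 0, and a median of 0.042. DESeq2 and the likelihood ratio test called 0 of the 49 as well. KO NPC 3 was the lowest library in 31 of the 49 genes and the highest in 10, against 36.8% and 34.9% of all genes. For each list the 3 genes of lowest unadjusted p are given, or 2 for the ubiquitin genes and E1 enzymes.

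Assembly factors had 3 genes above 0 and 6 below, or 7 and 2 without KO NPC 3, which was lowest in 7 of these 9. *Pomp*, the chaperone that helps to assemble the 20S core, had 74.8, 69.5 and 41.0 CPM in KO NPC 1, 2 and 3, against 66.6, 65.8 and 68.0 CPM in WT NPC 1, 2 and 3. KO NPC 3 alone was low, and the log2 fold change was -0.11 ± 0.24, or 0.11 without it. *Akirin2*, needed for import of proteasomes into the nucleus, had 115, 102 and 105 CPM in KO NPCs, against 111, 154 and 101 CPM in WT NPCs, where WT NPC 2 alone was high. *Psmd10*, a chaperone of the base, had 12.2, 13.4 and 8.13 CPM in KO NPCs, against 13.4, 12.8 and 11.6 CPM in WT NPCs. The groups of all 3 genes overlapped.

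Proteasome-bound proteins outside the member set had 3 genes above 0 and 6 below, or 4 and 5 without KO NPC 3. *Zfand5*, which binds and activates the 26S proteasome, went the other way in KO NPC 3, with 68.7, 69.2 and 135 CPM in KO NPC 1, 2 and 3, against 74.0, 82.6 and 67.9 CPM in WT NPC 1, 2 and 3. Its log2 fold change was 0.28 ± 0.30, and -0.12 without that library. *Txnl1*, a thioredoxin-like protein of the cap, had 114, 108 and 55.8 CPM in KO NPCs, against 122, 101 and 109 CPM in WT NPCs. *Ube3c*, a ubiquitin ligase of the proteasome, had 145, 143 and 95.9 CPM in KO NPCs, against 146, 136 and 154 CPM in WT NPCs. Both were lowest in KO NPC 3, as the members were.

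The 4 ubiquitin genes and E1 enzymes reported had all their log2 fold changes below 0, between -0.16 and -0.051, and all 4 were lowest in KO NPC 3. Without that library all 4 lay above 0, between 0.023 and 0.096. *Uba1*, the main ubiquitin-activating enzyme, had 690, 711 and 444 CPM in KO NPC 1, 2 and 3, against 658, 692 and 694 CPM in WT NPC 1, 2 and 3. *Rps27a*, which encodes ubiquitin joined to a ribosomal protein, had 92.8, 98.1 and 48.6 CPM in KO NPCs, against 97.996, 94.6 and 75.03 CPM in WT NPCs. The groups of both genes overlapped, and KO NPC 2 was above all WT libraries in each of them.

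Shuttle and extraction factors had 3 genes above 0 and 6 below, or 7 and 2 without KO NPC 3. *Nploc4*, a cofactor of the VCP segregase, had 96.7, 95.2 and 90.3 CPM in KO NPC 1, 2 and 3, against 86.9, 76.0 and 87.1 CPM in WT NPC 1, 2 and 3. All KO libraries were above all WT libraries, as in 2.74% of all genes, and the log2 fold change was 0.17 ± 0.14 with an unadjusted p of 0.251 and an adjusted p of 0.983 by the quasi-likelihood test, but it was -0.093 when scaled by *Rn7sk*. *Ubqln2* had 363, 373 and 270 CPM in KO NPCs, against 380, 359 and 366 CPM in WT NPCs. *Rad23b* had 216, 246 and 129 CPM, against 210, 213 and 250 CPM. Both encode shuttles that carry ubiquitin-tagged proteins to the cap, and both were lowest in KO NPC 3.

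Of the transcription factors and cofactors tied to proteasome genes, 4 were above 0 and 8 below, or 7 and 5 without KO NPC 3. *Stat3*, a factor activated by cytokine receptors, had 108, 92.6 and 82.8 CPM in KO NPC 1, 2 and 3, against 116, 141 and 135 CPM in WT NPC 1, 2 and 3. All KO libraries were below all WT libraries, as in 3.28% of all genes, and the log2 fold change was -0.47 ± 0.17, with an unadjusted p of 0.0296 but an adjusted p of 0.983 by the quasi-likelihood test. *Nfe2l1*, which encodes NRF1, had 113, 95.8 and 99.0 CPM in KO NPCs, against 116, 106 and 122 CPM in WT NPCs, and so was not the lowest in KO NPC 3. *Nfe2l2*, which encodes NRF2, had 111, 87.8 and 39.9 CPM, against 147, 96.0 and 116 CPM. It was lowest in KO NPC 3 and its log2 fold change was -0.59 ± 0.39, or -0.27 without that library, with overlapping groups.

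Of the 6 immunoproteasome and tissue-specific subunits tested, 4 were above 0 and 2 below, with all 6 libraries and without KO NPC 3. KO NPC 3 was lowest in *Psmb10* alone and highest in 3, and *Psma8* did not pass the filter. Whether this list differed from the members was not tested, and 3 of the 6 genes were under 1 CPM in every library. *Psmb8*, which takes the place of *Psmb5* in the immunoproteasome, had only 0.567, 0.275 and 0.831 CPM in KO NPC 1, 2 and 3, against 0.143, 0.293 and 0.131 CPM in WT NPC 1, 2 and 3. KO NPC 2 lay within the WT range, and the log2 fold change of 1.54 ± 0.60 had an unadjusted p of 0.0400 and an adjusted p of 0.983 by the quasi-likelihood test. *Psme1*, a subunit of the activator PA28 alpha beta, had 12.3, 16.7 and 22.5 CPM in KO NPCs, against 16.6, 11.0 and 12.7 CPM in WT NPCs, and was highest in KO NPC 3. *Psmb11*, a subunit of thymus cortex, was at most 0.373 CPM in any library.

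Scaling changed the size of the median but no call. The study scaled its counts with *Rn7sk*, a transcript of RNA polymerase III. It divided a library's *Rn7sk* log2 CPM by the mean of that value over libraries. Here each library was instead scaled to its raw *Rn7sk* count, so these values are not on the study's own scale. *Rn7sk* took 968923, 1137683 and 820758 counts in KO NPC 1, 2 and 3, against 814439, 1154087 and 552680 counts in WT NPC 1, 2 and 3. On that scale the summed members had 0.323, 0.238 and 0.172 counts per *Rn7sk* count in KO NPCs, against 0.283, 0.216 and 0.469 in WT NPCs, so that WT NPC 3 stood high as well as KO NPC 3 low. The median log2 fold change of the members was then -0.42, with all 34 below 0, where the median of all genes was -0.26 and 73.4% of genes were below 0. With the replicate number as a block it was -0.18, with 33 of 34 members and 53.7% of all genes below 0. It was -0.11 with total counts alone, where 31 of 34 members and 44.2% of all genes were below 0.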

How the data were processed

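Libraries were rRNA-depleted and strand-specific. Per the labels, the authors used STAR, StringTie, Trimmomatic, Picard and edgeR with GRCm38, and they deposited whole-number counts per gene locus, neither scaled nor filtered, at loci assembled by StringTie. The counting step, its use of strand and tool versions are not given in the sources used here. The deposited log2 values, which hold scaled counts, were not used.

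Members and gene lists were chosen with earlier results of these data known. Counts of rows naming a gene (53103 of 59699) were summed per reference gene. Rows naming no gene were left out and held 1.31% to 4.89% of a library's counts. Genes were filtered with filterByExpr (minimum count 10, minimum total 15), scaled by TMM and tested with edgeR 4.0.16 in R 4.3.3 (glmQLFit, glmQLFTest), with no block. P values were adjusted by Benjamini-Hochberg over 19073 genes, with a threshold of 0.05. CPM values use TMM-scaled library sizes, and log2 CPM a prior count of 2. With 3 libraries per genotype, p values cover the spread between these cultures. The steps were tested on simulated data.

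The replicate numbers were checked as pairs. Deviations from the group means of KO and WT libraries of the same number correlated at 0.413, 0.169 and 0.195 over all genes for numbers 1, 2 and 3. For libraries of unlike numbers the correlations were lower, from -0.254 to 0.0579. The study speaks of paired replicates. Library values were given for the catalytic genes, the 2 members of highest and the 2 of lowest mean CPM, the member of largest change in each role and the 4 of lowest p, and for the 3 genes of lowest p in each other list. Of the ubiquitin and E1 list, 2 genes are not reported here, and counts over the lists leave them out. *Psme3* was named as well, after its values were seen. DESeq2 1.42.0, a likelihood ratio test, other scalings and filters, a block and fits without single libraries were alternatives. Promoters were RefSeq windows (GRCm38.p6) and mRNA lengths were from GENCODE.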

Additional observations from a re-analysis of the deposited data

How the results depend on the processing

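The count of members called and the count called in the other lists were 0 under all 18 alternatives. In 10 of these, among them every quasi-likelihood fit without a single library, no gene at all was called. A count of 0 says nothing about the members there. The other 8 called 0.0117% to 0.458% of all genes. Among those 8, the likelihood ratio test without KO NPC 3 called 0.346%, and DESeq2 without that library called 0.458%. The median log2 fold change of the members ran from -0.27 to 0.047 over the quasi-likelihood fits without single libraries. It was positive in 4 fits, at 0.047 without KO NPC 3 by the quasi-likelihood test and by the likelihood ratio test, at 0.048 by DESeq2, and at 0.065 with both libraries numbered 3 left out. The last 3 of these, and a fit that joined *Rn7sk* scaling, the replicate block and the likelihood ratio test, were chosen after seeing the data.

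With the replicate number as a block, the quasi-likelihood test gave a median of -0.18 with 33 of 34 members and 53.7% of all genes below 0, and the block changed no call. *Rn7sk* scaling with the block and the likelihood ratio test gave a median of -0.36 and 0 members called.

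Without KO NPC 3, single log2 fold changes turned to 0.057 for *Psmb5*, 0.12 for *Psmb6*, 0.027 for *Psmd1*, 0.050 for *Psmc5*, 0.029 for *Psma1*, 0.022 for *Psmd10*, 0.11 for *Pomp*, -0.12 for *Zfand5*, 0.0056 for *Txnl1*, 0.042 for *Rad23b*, 0.038 for *Uba1* and 0.096 for *Rps27a*. By the likelihood ratio test they were 0.057 for *Psmb5*, 0.12 for *Psmb6*, 0.027 for *Psmd1*, 0.050 for *Psmc5*, 0.029 for *Psma1*, 0.022 for *Psmd10*, 0.11 for *Pomp*, -0.12 for *Zfand5*, 0.0056 for *Txnl1*, 0.042 for *Rad23b*, 0.038 for *Uba1* and 0.096 for *Rps27a*. By DESeq2 they were 0.058 for *Psmb5*, 0.12 for *Psmb6*, 0.028 for *Psmd1*, 0.051 for *Psmc5*, 0.030 for *Psma1*, 0.024 for *Psmd10*, 0.11 for *Pomp*, -0.12 for *Zfand5*, 0.0068 for *Txnl1*, 0.043 for *Rad23b*, 0.039 for *Uba1* and 0.098 for *Rps27a*. With both libraries numbered 3 left out, the values of opposite sign were 0.11 for *Psmb5*, 0.085 for *Psmb6*, 0.035 for *Psmb7*, 0.064 for *Psmd1*, 0.018 for *Psma4*, 0.060 for *Psmc5*, 0.015 for *Psma1*, 0.021 for *Psmd3*, 0.12 for *Pomp*, -0.19 for *Zfand5*, 0.020 for *Ube3c*, 0.12 for *Rad23b* and 0.045 for *Uba1*. Under *Rn7sk* scaling they were -0.038 for *Psme4* and -0.093 for *Nploc4*, and with the block and the likelihood ratio test on that scale -0.025 for *Psme4* and -0.019 for *Nploc4*. Over the quasi-likelihood fits without single libraries the values ran from -0.31 to 0.053 for *Akirin2*, -0.27 to 0.11 for *Pomp*, -0.47 to 0.029 for *Psma1*, -3.07 to 0.25 for *Psmb11*, -0.29 to 0.057 for *Psmb5*, -0.26 to 0.12 for *Psmb6*, -0.36 to 0.050 for *Psmc5*, -0.24 to 0.027 for *Psmd1*, -0.28 to 0.022 for *Psmd10*, -0.35 to 0.042 for *Rad23b*, -0.30 to 0.096 for *Rps27a*, -0.44 to 0.0056 for *Txnl1*, -0.24 to 0.038 for *Uba1* and -0.12 to 0.47 for *Zfand5*. The cause of these turns was not tested.

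Counts of the members were high, with a lowest count in any library of 1033, for *Psmb5* in KO NPC 3. The spread between cultures sets the precision, and with 3 libraries per genotype the 95% intervals of the members' fold changes together reach from -0.99 to 0.59.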
